A study of Homo sapiens with 10 samples.

Results

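Oxidative phosphorylation subunit genes are the nuclear genes that encode the parts of the respiratory chain and of the mitochondrial ATP synthase. They were found by symbol in the deposited count tables, as names built on NDUFA, NDUFB, NDUFC, NDUFS or NDUFV, SDHA to SDHD, UQCR, COX4 to COX8, and ATP5. The rule matched 86 of 19215 gene rows, and no measured value entered it. By textbook role 36 of them belong to complex I, 4 to complex II, 9 to complex III, 18 to complex IV and 16 to the ATP synthase. The other 3 are not subunits: ATP5S and ATP5SL, which carry the name only, and ATP5J2-PTCD1, a transcript read through from one gene into the next. Of the 86 genes, 78 had enough counts to be tested, 76 of them encoding subunits or close copies of subunits.

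RNA was sequenced in 10 libraries from a pair of human liver tumour lines, HepG2, which keeps many hepatocyte traits, and SK-Hep1, whose traits are mesenchymal and endothelial. Each line had been infected at a multiplicity of infection of 5 with lentivirus for 48 h, with polybrene at 10 µg/mL, and selected in puromycin at 1 µg/mL, so all 4 groups carry an integrated, puromycin-resistant vector. It made a hairpin transcript called a tough decoy (TuD), which sequesters microRNAs: miR-17 TuD is directed at the miR-17 family and NC TuD is the control. Each HepG2 arm has 3 libraries and each SK-Hep1 arm 2, and after 2 weeks the resistant colonies of each arm were pooled, so each arm is 1 stable line. The labels do not say that replicates were separate cultures. The p-values then measure only the spread between these libraries, which may be technical, and the decoy cannot be told apart from other differences between the stable lines of an arm.

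Complex I takes electrons from NADH and complex II takes them from succinate, both pass them to ubiquinone, complex III hands them on to cytochrome c, and complex IV delivers them to oxygen. Complexes I, III and IV pump protons as they work, and the ATP synthase lets the protons flow back through a rotating ring of c subunits to make ATP. Most subunits are encoded in the nucleus, while a few core ones are encoded in the mitochondrial genome. Liver cells are rich in mitochondria, and tumour lines differ in how far they rely on them.

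Each library held 12884225 to 15076431 counts on genes. Levels are given as CPM, counts scaled to library size after TMM normalisation, in which 1 count is 0.0663 to 0.0776 CPM. In bulk RNA, fewer cells of a kind and less RNA per cell cannot be told apart. Symbols starting with MT- had 0 rows, so the subunits encoded in the mitochondrial genome were not analysed here. Of 10 hepatocyte markers, summed levels were 52915 to 55104 CPM in HepG2 NC TuD and 85.4 to 104 CPM in SK-Hep1 NC TuD, where TTR had no count. The 10 mesenchymal or endothelial markers summed to 19277 to 19668 CPM in SK-Hep1 NC TuD and 15121 to 16458 CPM in HepG2 NC TuD. This sum separated the lines far less than the hepatocyte sum did, and a sum does not show which markers differ. The mature miR-17 family is not measured by these counts, so the block itself was not checked.

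In HepG2, some subunit genes of complexes III and IV and of the ATP synthase were slightly lower in the miR-17 TuD line, and few of complex I. Of the 78 tested genes, 18 were lower and 1, COX8A, was higher, at a Benjamini-Hochberg adjusted p below 0.05 over all 13349 tested genes. Over all genes 8.58% were lower and 10.7% were higher, against 23.1% and 1.28% of the subunit set. The median log2 fold change was -0.09 for the subunit set, with 66 of 78 below 0, against 0.00 for all genes. The sizes were small: the 18 falls ran from 7.57% for NDUFS1 to 17.7% for COX6C. The 59 genes that were not called ran from NDUFA1 at -0.17 ± 0.07 (adjusted p = 0.0814) to NDUFB1 at 0.22 ± 0.11 (adjusted p = 0.157).

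Seen library by library, the change was present in every miR-17 TuD library of HepG2. Against the mean of the NC TuD libraries, the median log2 difference of the set was -0.07, -0.08 and -0.10 in miR-17 TuD libraries 1, 2 and 3, and 63, 59 and 66 of 78 genes were below that mean. The NC TuD libraries themselves had medians of 0.00 after rounding, but they set the reference, so their medians lie near 0 by construction. Summed over all 86 genes, levels were 8002, 7984 and 7968 CPM in the NC TuD libraries and 7543, 7410 and 7354 CPM in the miR-17 TuD libraries. The groups did not overlap, and the mean was 6.88% lower. As a plain share of all gene counts, with no scaling, the set took 0.781 ± 0.0022% (SD, n = 3) in NC TuD and 0.743 ± 0.0093% in miR-17 TuD.

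**Figure D1:**
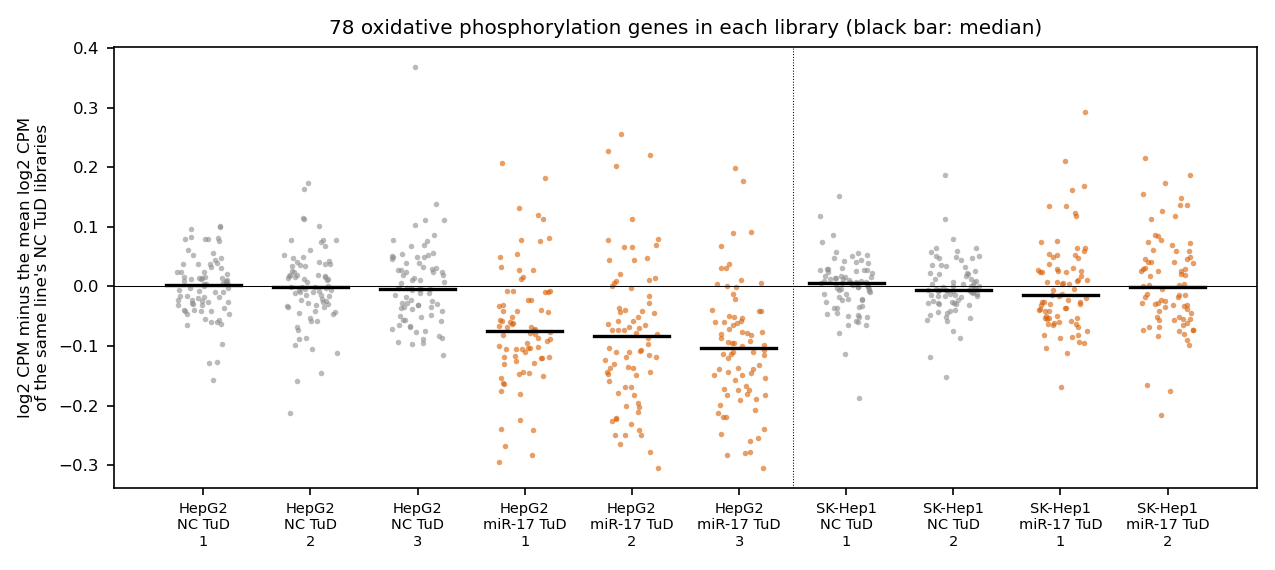
Each point is 1 of 78 tested genes in 1 library, as its log2 CPM minus the mean log2 CPM of the NC TuD libraries of the same line, and black bars are medians over the genes. All 3 HepG2 miR-17 TuD libraries have a median below 0, while the SK-Hep1 miR-17 TuD libraries have medians of -0.0135 and -0.0016. The NC TuD libraries set the reference, so their medians lie near 0 by construction.

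Complex I had 4 lower genes of 36, or 11.1%, near the 8.58% of all genes, and its median log2 fold change was -0.07. NDUFS5, an accessory subunit, measured 106, 104 and 109 CPM in NC TuD and 90.03, 89.4 and 89.1 CPM in miR-17 TuD. All 3 decoy libraries were below all 3 controls, a fall of 15.8% (log2 fold change -0.25 ± 0.05 (SE), adjusted p = 4.63e-05). NDUFB6, an accessory subunit of the membrane arm, fell from 33.7 ± 0.595 to 28.2 ± 0.778 CPM (SD, n = 3 per arm), with log2 fold change -0.26 ± 0.07 and adjusted p = 0.00461 by edgeR. NDUFC2, also of the membrane arm, fell from 82.6 ± 3.81 to 73.9 ± 4.09 CPM (edgeR adjusted p = 0.0234, n = 3). The read-through row NDUFC2-KCTD14, which overlaps it, held at most 3 counts in any library.

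In the core of complex I, which carries the flavin and the iron-sulfur clusters, 1 of 7 nuclear subunits was lower (14.3%). Of the accessory ones 3 of 29 were lower (10.3%). Both shares were near the 8.58% of all genes. The core gene was NDUFS1, the largest subunit, at 210, 232 and 217 CPM in NC TuD and 201, 201 and 208 CPM in miR-17 TuD. Its arms did not overlap, but the gap was small beside the spread (log2 fold change -0.11 ± 0.04, adjusted p = 0.0444), and it lost its call in 11 of the 14 alternatives run. NDUFV2 had a log2 fold change of -0.12 ± 0.05 (adjusted p = 0.0656). NDUFS3, NDUFS7, NDUFS8 and NDUFV1 lay between -0.05 and 0.05. A difference between core and accessory subunits was not tested.

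No complex II gene passed the test in HepG2. Of its 4 genes, edgeR called 0, as did DESeq2 and limma on the deposited log2 matrix. At an unadjusted p below 0.05 edgeR gave 1, SDHC, a membrane anchor, with a log2 fold change of -0.11 ± 0.05 (adjusted p = 0.098). SDHA, the flavin subunit that also serves the citric acid cycle, measured 209, 212 and 216 CPM in NC TuD and 211, 201 and 198 CPM in miR-17 TuD, and these arms overlapped. SDHB, the iron-sulfur subunit, had a log2 fold change of -0.04 ± 0.05, and SDHD, the other anchor, of -0.07 ± 0.05. SDHA has close copies elsewhere in the genome, so its count is uncertain.

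Complex III had the highest share of lower genes, with 5 of 9 (55.6%), against 8.58% of all genes. All 9 fold changes were below 0, among them that of the copy UQCRHL, which was not called. No complex III call was kept in all 14 alternatives. UQCRH, UQCRB and UQCRFS1 kept theirs in 13, UQCRC2 in 8 and UQCR10 in 6. A difference between the complexes was not tested. UQCRH, the hinge protein that helps cytochrome c to bind, measured 118, 124 and 119 CPM in NC TuD and 106, 105 and 100 CPM in miR-17 TuD. Every decoy library was below every control (log2 fold change -0.21 ± 0.05, adjusted p = 0.000402). UQCRH has a near-identical copy, UQCRHL, with 68 to 112 counts per library, so reads between the copies are uncertain. UQCRFS1, the Rieske iron-sulfur protein, measured 99.7, 91.4 and 92.0 CPM in NC TuD and 85.0, 82.0 and 81.0 CPM in miR-17 TuD (log2 fold change -0.19 ± 0.05, adjusted p = 0.0028). UQCRB, a small subunit, fell by 12.1%, UQCR10 by 10.2% and the core protein UQCRC2 by 8.25%. UQCRC1, the other core protein, was not called, at 247, 245 and 267 CPM against 238, 254 and 229 CPM (log2 fold change -0.07 ± 0.04, adjusted p = 0.214).

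Complex IV had genes called in both directions, with 4 of 12 tested lower and 1 higher. COX6C, a small membrane subunit, had the largest fall of the set, from 49.2, 52.3 and 45.1 CPM to 39.8, 40.6 and 40.2 CPM. The decoy libraries were close together and below all controls (log2 fold change -0.28 ± 0.06, adjusted p = 0.000581). COX7B, another small membrane subunit, measured 46.0, 42.9 and 45.1 CPM in NC TuD and 38.2, 38.2 and 38.4 CPM in miR-17 TuD (log2 fold change -0.22 ± 0.06, adjusted p = 0.00467). NDUFA4, named for complex I but now placed in complex IV, fell by 10.9%, and COX7C by 9.23%.

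COX8A was the exception in direction. This small membrane subunit measured 84.0, 79.2 and 74.8 CPM in NC TuD and 89.9, 92.4 and 84.5 CPM in miR-17 TuD. The arms were separated by a narrow gap (log2 fold change 0.17 ± 0.05, adjusted p = 0.0132). The call was lost on the deposited log2 matrix and without miR-17 TuD library 1 or 2 or NC TuD library 3, with adjusted p up to 0.107 over 14 alternatives. COX4I1 and COX5A, which bind the catalytic core, had log2 fold changes of 0.04 ± 0.04 and 0.00 ± 0.05.

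In the ATP synthase, 5 of 15 tested genes were lower, among them both large subunits of the catalytic head. ATP5B, the catalytic beta subunit, measured 824, 815 and 815 CPM in NC TuD and 753, 723 and 729 CPM in miR-17 TuD. ATP5A1, the alpha subunit, measured 634, 611 and 626 CPM in NC TuD and 574, 539 and 553 CPM in miR-17 TuD. The arms of both genes were well apart, with log2 fold changes of -0.15 ± 0.03 (adjusted p = 0.0002) and -0.17 ± 0.03 (adjusted p = 0.000145). ATP5G3, 1 of 3 genes that encode the same c subunit, had the smallest adjusted p of the set: 323, 323 and 321 CPM against 288, 277 and 265 CPM (log2 fold change -0.22 ± 0.04, adjusted p = 7.17e-06). ATP5G1, the second c gene, fell by 9.97% and ATP5O, which joins the head to the stalk, by 8.45%. ATP5G2, the third c gene, did not pass, at 0.03 ± 0.05. ATP5S and ATP5SL, which are not subunits, had log2 fold changes of -0.12 ± 0.10 and -0.11 ± 0.06 and were not called.

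**Figure D2:**
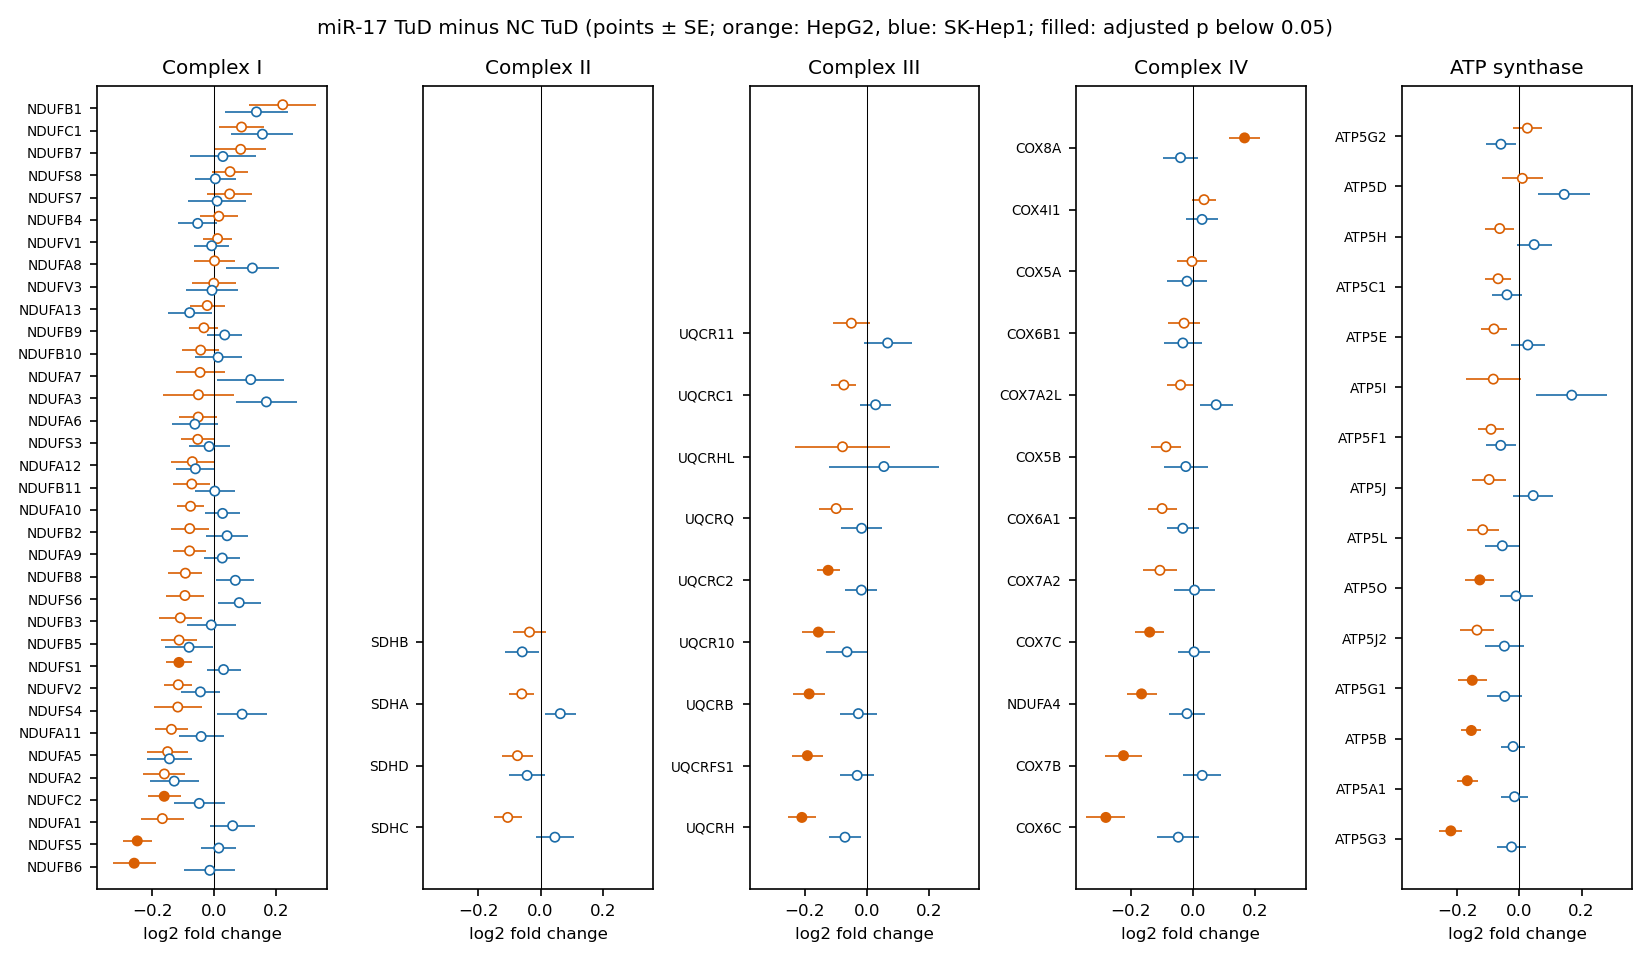
Log2 fold change of miR-17 TuD against NC TuD for the tested subunit genes but 1, by complex, as a point with its SE on a linear log2 axis; orange is HepG2 (n = 3 per arm), blue is SK-Hep1 (n = 2 per arm), and filled points have an adjusted p below 0.05. Of the filled points, 18 are left of 0 and 1, COX8A, is right of it, and all are HepG2.

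Several other measures moved with the HepG2 result. Cytosolic ribosomal protein genes, which are also short and abundant, had 69 of 83 lower (83.1%) and none higher by edgeR, with a median of -0.16. Mitochondrial ribosomal protein genes had 14 of 76 lower (18.4%) and 1 higher, with a median of -0.09. Over all genes 8.58% were lower. The hepatocyte markers summed to 45921 to 48513 CPM in miR-17 TuD against 52915 to 55104 CPM in NC TuD, with none at 0. Among genes not in the set, the share called lower rose with expression, from 3.63% at an average log2 CPM up to 5, to 9.51% from 5 to 7 and 25.1% above 7. The subunit genes gave 1 of 11, 11 of 54 and 6 of 13 in those ranges. The part of these measures in the result was not tested.

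Transcript length also moved with it. The tested subunit genes had a median summed exon length of 931 bases, against 2806 for all tested genes. Among other genes in HepG2, the median log2 fold change was -0.05 up to 800 bases and 0.01 above 3000 bases. The medians of the subunit genes were -0.09 up to 800 bases, -0.12 above 1200 and up to 2000 and -0.09 above 3000. They were below those of the other genes in each of the 5 length ranges. The shares called lower were close among short genes. Up to 800 bases, 6 of 32 subunit genes (18.75%) were lower, against 18.3% of other genes. Above 800 and up to 1200 bases, 3 of 21 (14.3%) were lower, against 13.85%. In the longer ranges, in order, 2 of 10, 5 of 9 and 2 of 6 were lower, against 9.10%, 9.07% and 6.63%. A difference in these shares was not tested. With the length trend over all genes removed, the set's median was -0.04, with 13 genes lower and 2 higher (COX8A and NDUFB1), and ATP5G1, ATP5O, COX7C, NDUFS1 and UQCR10 were no longer called. Leaving out 1 HepG2 library ended 1 or more calls: ATP5G1, ATP5O, COX7C, COX8A and NDUFS1 without miR-17 TuD 1, ATP5O, COX8A, NDUFC2, NDUFS1, UQCRB and UQCRC2 without miR-17 TuD 2, and COX7C and UQCR10 without miR-17 TuD 3. Among the controls it ended ATP5O, COX7C, NDUFC2, UQCR10, UQCRC2 and UQCRFS1 without NC TuD 1, ATP5O, COX7C, NDUFA4, NDUFS1, UQCR10 and UQCRC2 without NC TuD 2, and ATP5G1, COX8A, NDUFS1 and UQCR10 without NC TuD 3. ATP5A1, ATP5B, ATP5G3, COX6C, COX7B and NDUFS5 kept their calls in all 14 alternatives.

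**Figure D3:**
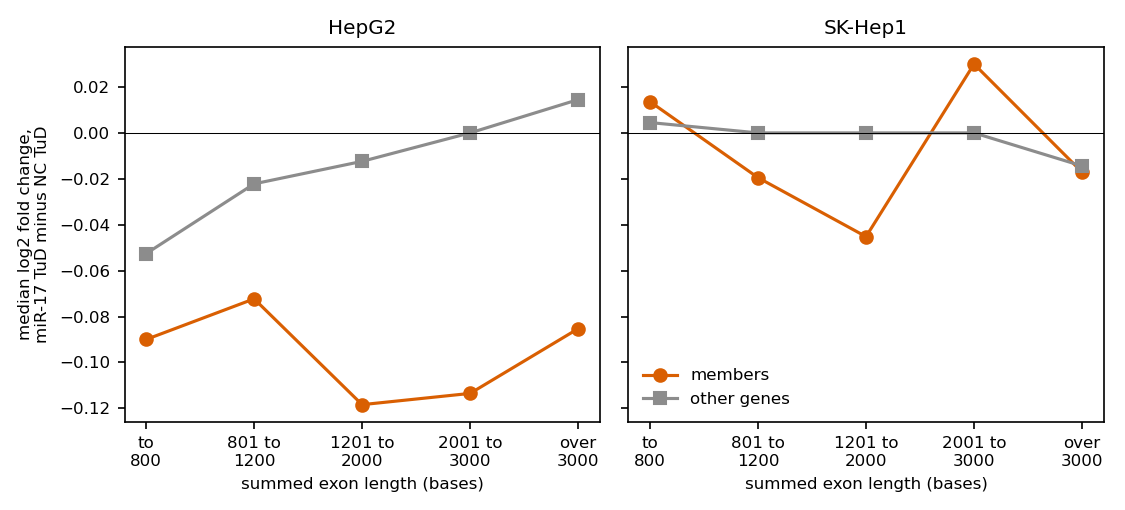
Median log2 fold change of miR-17 TuD against NC TuD in 5 ranges of summed exon length, for the subunit genes (orange circles; 32, 21, 10, 9 and 6 genes) and the other tested genes (grey squares), in HepG2 and SK-Hep1. In HepG2 the grey medians run from -0.05 to 0.01 with length and the orange ones lie below them in each range.

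In SK-Hep1 the same decoy gave no called subunit gene. By edgeR 0 of 78 were higher and 0 lower, against 0.667% and 0.202% of all genes. DESeq2 and limma on the deposited log2 matrix called none either, and at an unadjusted p below 0.05 edgeR gave 1, NDUFA5. The median log2 fold change was -0.01, equal after rounding to the -0.01 of all genes, with 42 of 78 below 0. Summed levels were 8280 and 8288 CPM in NC TuD and 8204 and 8245 CPM in miR-17 TuD, a mean 0.718% lower. ATP5G3 measured 208.1 and 207.9 CPM in NC TuD and 208.5 and 200.4 CPM in miR-17 TuD, with overlapping arms. NDUFS5 measured 93.3 and 92.5 CPM against 94.5 and 93.1 CPM, also overlapping. COX6C, at 63.9 and 71.3 CPM against 65.8 and 65.2 CPM, overlapped as well.

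The 5 smallest adjusted p in SK-Hep1 belonged to NDUFA5, ATP5D, NDUFA3, NDUFA2 and NDUFC1, none below 0.592. NDUFA5, an accessory subunit of the matrix arm, measured 68.0 and 67.1 CPM in NC TuD and 62.5 and 59.8 CPM in miR-17 TuD (log2 fold change -0.14 ± 0.07). NDUFA3 measured 22.5 and 21.6 CPM against 24.6 and 24.9 CPM (0.17 ± 0.10). These arms did not overlap, but the test across all genes did not call them. The median SE of the set was 0.06 log2 in SK-Hep1 and 0.05 in HepG2, and several of the HepG2 falls were of only 2 or 3 such errors, so changes of that size could be missed in SK-Hep1.

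The difference between the 2 responses was tested in the same fit. Of 78 genes 1 had a higher response in SK-Hep1 and 0 a lower one, against 1.24% and 2.51% of all genes. The median difference was 0.10 for the set and -0.01 for all genes, and it was above 0 for 63 of 78. The called gene was NDUFS5, which was 0.26 ± 0.07 log2 higher in its response in SK-Hep1 (adjusted p = 0.0278). It lost this call in 10 of 17 alternatives, among them without any 1 of the 4 SK-Hep1 libraries, without HepG2 miR-17 TuD library 1, without HepG2 NC TuD library 1 or 3, and with the length trend removed (adjusted p = 0.187). ATP5G3 had a difference of 0.20 ± 0.06 (adjusted p = 0.0525), COX7B of 0.25 ± 0.09 (adjusted p = 0.0935), ATP5A1 of 0.15 ± 0.05 (adjusted p = 0.112) and COX8A of -0.21 ± 0.07 (adjusted p = 0.12). COX8A was called in this direction without HepG2 miR-17 TuD library 3 and with the length trend removed. For the 17 other genes that were lower in HepG2 a difference between the lines was therefore not established.

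The cell lines themselves differed far more than the decoy arms. In SK-Hep1 NC TuD against HepG2 NC TuD, 36 of 78 genes were higher and 31 lower, against 43.9% and 42.8% of all genes, so the set's shares of 46.2% and 39.7% were close to the background. The median size of a change was 0.48 log2 in the set and 0.86 over all genes. Leaving out 1 library ended the call of ATP5I, COX7A2, NDUFA4, NDUFA6, NDUFV1 or UQCR10 (without SK-Hep1 NC TuD 2), of ATP5J, COX7A2, COX7A2L, NDUFA6 or NDUFB3 (without SK-Hep1 NC TuD 1), of ATP5J, COX7A2, COX7A2L, NDUFA2, NDUFA4 or NDUFA6 (without HepG2 NC TuD 3), of NDUFA6 (without HepG2 NC TuD 1) and of COX7A2 (without HepG2 NC TuD 2). Summed over the set the lines were close, at 8284 ± 5.16 CPM (SD, n = 2) in SK-Hep1 and 7985 ± 17.1 CPM (n = 3) in HepG2, and each complex held both higher and lower genes. This comparison and the HepG2 decoy comparison use the same HepG2 NC TuD libraries.

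Complex I had 17 higher and 14 lower genes. NDUFA12, an accessory subunit, measured 30.3, 29.9 and 28.4 CPM in HepG2 and 96.7 and 93.2 CPM in SK-Hep1, the largest difference of the set at 3.22-fold (log2 1.69 ± 0.06, adjusted p = 1.26e-32). NDUFA3 and NDUFB1, both small membrane-arm subunits, were 2.26-fold and 2.00-fold higher in SK-Hep1. In the other direction NDUFC2 measured 87.0, 80.2 and 80.6 CPM in HepG2 and 32.7 and 32.4 CPM in SK-Hep1 (log2 -1.34 ± 0.07). Core subunits were called both ways, among them NDUFV2 (log2 -1.01 ± 0.06), NDUFS1 (-0.86 ± 0.05) and NDUFS3 (-0.25 ± 0.06) as lower in SK-Hep1, and NDUFS8 (0.38 ± 0.06) and NDUFV1 (0.17 ± 0.05) as higher. NDUFS7 was not called, at -0.16 ± 0.08.

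Within complex II the genes split evenly. SDHB was higher in SK-Hep1, at 68.3, 62.9 and 65.4 CPM in HepG2 and 124 CPM in both SK-Hep1 libraries, and SDHD was 1.22-fold higher. SDHC measured 119, 116 and 114 CPM in HepG2 and 65.7 and 66.6 CPM in SK-Hep1, and SDHA was 1.49-fold lower. The 2 catalytic subunits thus differed in opposite directions, as did the 2 anchors. Both SDHB (log2 0.92 ± 0.05) and SDHC (log2 -0.81 ± 0.05) kept their calls in all 13 alternatives.

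Complex III held the gene that was lowest relative to HepG2. UQCRC2 measured 378, 383 and 362 CPM in HepG2 and 135 and 128 CPM in SK-Hep1, 2.85-fold lower (log2 -1.51 ± 0.05, adjusted p = 2.66e-37). Its partner UQCRC1, which sits beside it in the complex, was 1.35-fold lower. UQCRFS1 was 1.58-fold higher, and UQCRB and UQCRH were higher by 0.32 ± 0.06 and 0.25 ± 0.05 on the log2 scale. The summed level of complex III was 1121 ± 4.15 CPM in HepG2 and 887.5 ± 10.6 CPM in SK-Hep1. UQCRC2 alone, at a mean of 374 and 132 CPM, differed by more than this sum did, and the median log2 fold change of the 9 genes was -0.02.

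Complex IV had 7 higher and 4 lower genes of 12 tested. COX8A measured 84.0, 79.2 and 74.8 CPM in HepG2 and 148 and 150 CPM in SK-Hep1 (log2 0.91 ± 0.05). COX7B was 1.74-fold, COX7C 1.61-fold and COX6A1 1.55-fold higher. COX5B, a zinc-binding subunit on the matrix side, measured 96.2, 96.6 and 93.3 CPM in HepG2 and 42.0 and 40.6 CPM in SK-Hep1 (log2 -1.21 ± 0.06). COX4I1 and COX5A were lower in SK-Hep1 (log2 -0.59 ± 0.05 and -0.52 ± 0.06).

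In the ATP synthase, 7 genes were higher and 5 lower, and the summed level was 1.19 times that of HepG2. ATP5B measured 824, 815 and 815 CPM in HepG2 and 1328 and 1329 CPM in SK-Hep1 (log2 0.70 ± 0.03). ATP5A1, whose protein alternates with that of ATP5B in the head, measured 634, 611 and 626 CPM in HepG2 and 449 and 446 CPM in SK-Hep1 (log2 -0.48 ± 0.04). These partner subunits thus differed in opposite directions. The median log2 fold change of the 15 tested genes was 0.10. ATP5L, ATP5F1 and ATP5O, of the stalk and membrane part, were 1.64-fold, 1.46-fold and 1.43-fold higher, while ATP5E, of the central stalk, was 1.69-fold lower. ATP5S and ATP5SL, not subunits, were lower in SK-Hep1 (log2 -0.57 ± 0.12 and -0.59 ± 0.07).

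**Figure D4:**
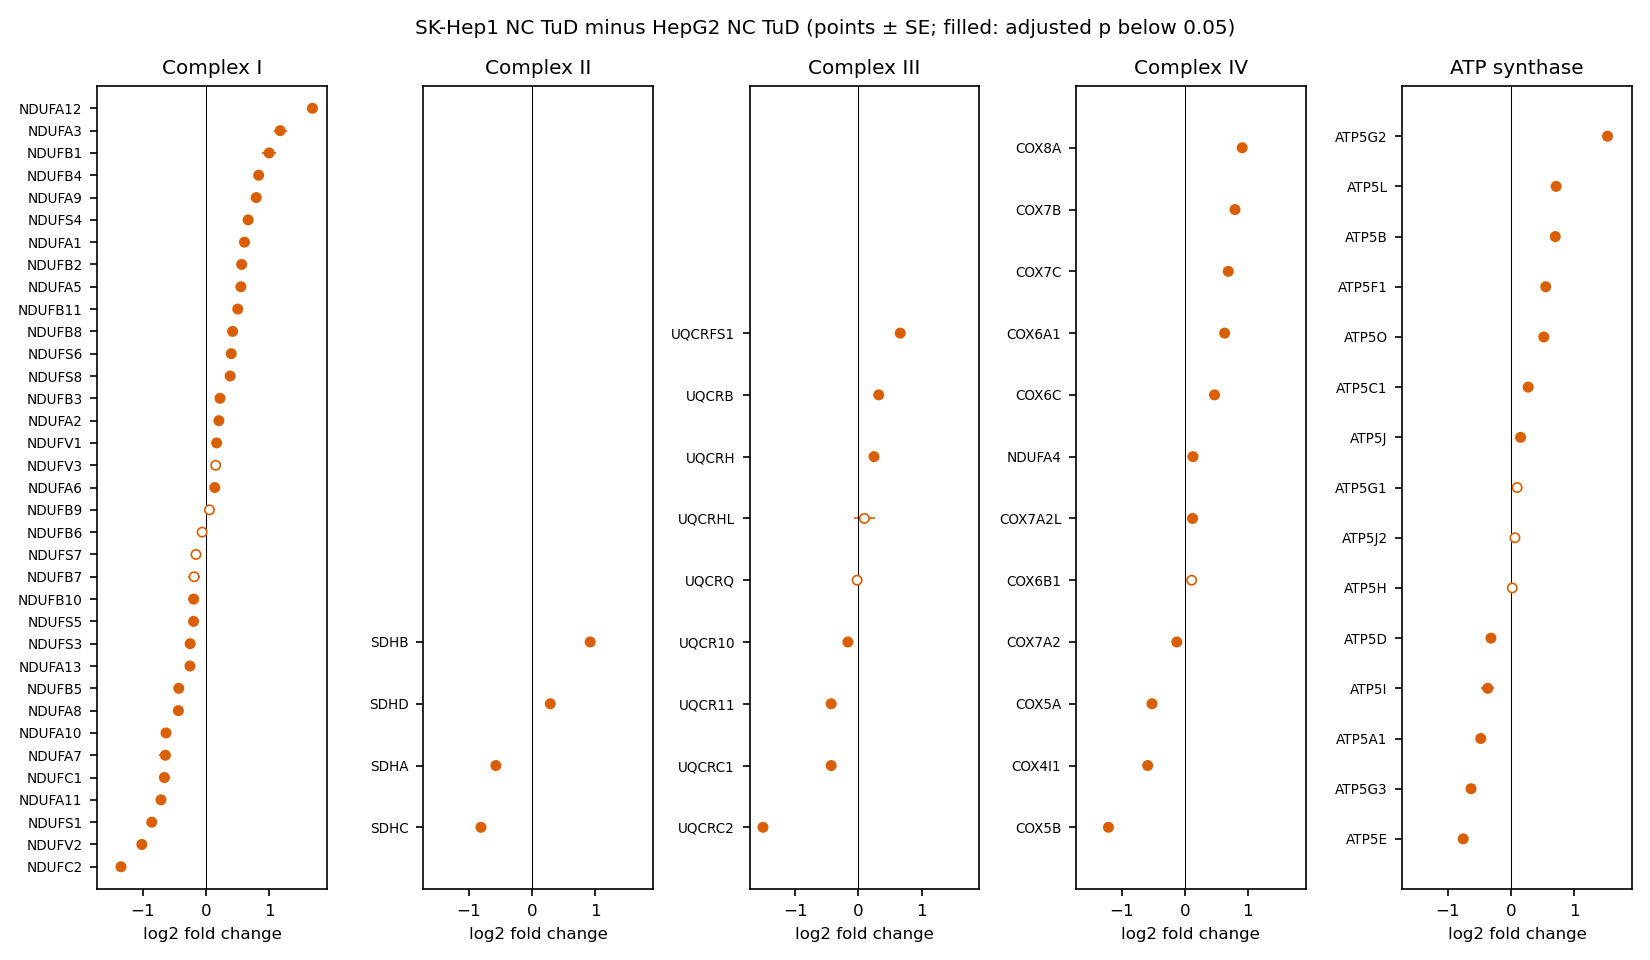
Log2 fold change of SK-Hep1 NC TuD (n = 2) against HepG2 NC TuD (n = 3) for the tested subunit genes but 1, by complex, as a point with its SE on a linear log2 axis; filled points have an adjusted p below 0.05. Every complex has filled points on both sides of 0, from UQCRC2 at -1.51 to NDUFA12 at 1.69.

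The lines expressed all 3 c-ring genes, which encode the same mature protein, in different proportions. Levels between genes were compared as CPM per kilobase of summed exon length, with lengths that are approximate. ATP5G3 made up 56.6 ± 0.9% (SD, n = 3) of the summed level of the 3 c genes in HepG2 NC TuD and 32.0 ± 0.00544% (n = 2) in SK-Hep1 NC TuD. ATP5G2 went the other way, from 17.2 ± 0.383% to 43.4 ± 0.0694%, and ATP5G1 held 26.2 ± 0.73% and 24.6 ± 0.0748%. The order of the genes thus differed between the lines, with ATP5G3 first in HepG2 and ATP5G2 first in SK-Hep1. In HepG2 the decoy line had 54.2 ± 0.901% ATP5G3 and 19.5 ± 0.39% ATP5G2. In CPM, ATP5G2 measured 101, 99.6 and 106 in HepG2 NC TuD and 293.7 and 294.1 in SK-Hep1 NC TuD (log2 1.53 ± 0.05, adjusted p = 2.4e-37).

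**Figure D5:**
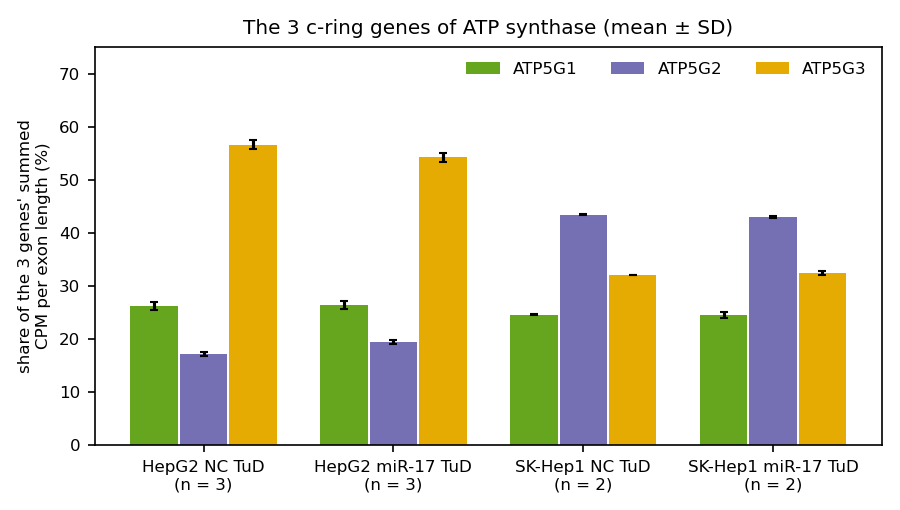
Share of each c-ring gene in the summed CPM per exon length of the 3 genes, as the mean ± SD over libraries, with the axis from 0. ATP5G3 is the tallest bar in both HepG2 groups and ATP5G2 in both SK-Hep1 groups.

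Tissue-restricted isoforms were almost silent in both lines. COX4I2, COX6A2, COX7B2 and COX8C had 0 counts in all 10 libraries, which allows up to 0.199 to 0.233 CPM per library for counting error. COX7A1, the heart and muscle form, had at most 2 counts and COX6B2, a testis form, at most 6. The widely expressed partners COX4I1, COX6A1, COX6B1, COX7A2, COX7B and COX8A were all tested. ATP5L2, a copy of ATP5L, had at most 1 count and ATP5J2-PTCD1 none. NDUFA4L2, a hypoxia-linked relative of NDUFA4 that the name rule does not take in, had at most 7 counts.

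The promoters were read from RefSeq on GRCh38.p14, over 250 bases before to 50 after the transcription start, for the 67 genes with an entry. Motifs of 3 factors known to control respiratory genes were sought on both strands: NRF1 as GCATGCGC, the ETS factors such as GABP as CCGGAAG, and YY1 as AAGATGG. NRF1 letters were in 14 of 67 (20.9%), against 6.15% of all tested genes with an entry. ETS letters were in 20 (29.9% against 21.6%) and YY1 letters in 18 (26.9% against 9.11%). At least 1 motif was in 39 promoters, and 10 had 2 or more, but the matching shares of all tested genes were not counted. A match is a description of the letters and not a binding site. Of the 11 genes lower in HepG2 miR-17 TuD that had an entry, 0 held the NRF1 letters, against 14 of 52 other tested genes. The other splits were more alike: 3 of 11 against 17 of 52 for ETS letters and 3 of 11 against 15 of 52 for YY1 letters. Any motif was in 6 of 11 against 33 of 52. All these splits were looked at after the values were known and were not tested.

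The promoters of 4 genes are shown because they span the results: UQCRH and COX7C fell in HepG2, COX8A rose, and SDHB differed between the lines. They were chosen after the values and motif matches were seen. Each runs from 150 bases before to 30 after the start, 5′ to 3′ on the strand of the gene, with motif letters in capitals. These are ETS letters in UQCRH and COX8A and YY1 letters in COX7C, all on the opposite strand. In SDHB they are ETS then YY1 letters. The SDHB promoter also holds the NRF1 letters, outside the stretch shown. UQCRH lies at chr1:46303548-46303727 on the plus strand, COX7C at chr5:86617791-86617970 on plus, COX8A at chr11:63974470-63974649 on plus and SDHB at chr1:17054003-17054182 on minus.
UQCRH: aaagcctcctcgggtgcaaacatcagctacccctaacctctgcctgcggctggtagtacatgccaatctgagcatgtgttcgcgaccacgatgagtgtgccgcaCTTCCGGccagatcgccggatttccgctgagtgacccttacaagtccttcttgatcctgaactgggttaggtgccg
COX7C: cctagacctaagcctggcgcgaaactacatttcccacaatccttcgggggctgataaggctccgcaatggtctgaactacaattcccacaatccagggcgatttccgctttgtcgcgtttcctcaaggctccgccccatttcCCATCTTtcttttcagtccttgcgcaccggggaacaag
COX8A: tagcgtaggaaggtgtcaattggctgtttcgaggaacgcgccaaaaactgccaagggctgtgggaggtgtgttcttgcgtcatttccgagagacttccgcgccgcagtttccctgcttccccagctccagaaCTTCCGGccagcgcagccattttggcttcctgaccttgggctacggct
SDHB: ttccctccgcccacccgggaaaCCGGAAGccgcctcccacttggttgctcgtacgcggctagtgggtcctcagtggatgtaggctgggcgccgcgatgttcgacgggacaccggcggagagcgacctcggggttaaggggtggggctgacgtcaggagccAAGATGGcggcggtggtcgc
UQCRH and COX8A share the same ETS letters on the same strand, and their changes in HepG2 had opposite signs. A link between these letters and the direction of a change was not tested.

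The decoy was aimed at the miR-17 family, whose members share the seed at bases 2 to 8, shown in capitals in 3 of them because a target site is read from these letters. The sequences are from RefSeq on GRCh38.p14, with miR-17-5p at chr13:91350618-91350640 on the plus strand, miR-20a-5p at chr13:91351072-91351094 on plus and miR-106b-5p at chr7:100094043-100094063 on minus.
hsa-miR-17-5p: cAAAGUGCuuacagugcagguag
hsa-miR-20a-5p: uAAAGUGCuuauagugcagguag
hsa-miR-106b-5p: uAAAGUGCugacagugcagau
A microRNA lowers the messenger RNA or the translation of its targets. Matches to the seed, as an 8mer (GCACTTTA) or a 7mer-m8 (GCACTTT), were looked for in the 3′UTR of each gene, using the longest one in GENCODE 29 on GRCh38. They were in 12 of 78 subunit genes (15.4%), against 24.99% of all tested genes with a 3′UTR. The subunit genes had shorter ones, with a median of 454 bases against 1337. Whether the cells use these longest forms is not known from the counts.

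Only 1 of the 78 tested genes, COX8A, rose in HepG2, and it had no site. Of the 12 with a site, by edgeR 0 were higher and 6 lower in HepG2, with a median log2 fold change of -0.12. In SK-Hep1 0 of them were called, and their median was -0.01. Over all tested genes 10.7% were higher and 8.58% lower in HepG2, and 0.667% and 0.202% in SK-Hep1. The shares among all tested genes with a site were not counted. The 66 without a site had 1 higher and 12 lower in HepG2, with a median of -0.08. In 11 of the 12 subunit genes with a site, 24 sites were read in their context. Of these sites, 20 had the letters tgtaat within the 15 bases before the site, as the common Alu repeat has beside its own GCACTTT. This was noticed after the sites were seen. The 4 others, with the site in capitals, were in COX7A2L (8mer, chr2:42350619-42350626), NDUFS1 (8mer, chr2:206118285-206118292), UQCRFS1 (chr19:29206632-29206638) and NDUFB6 (chr9:32553509-32553515), all on the minus strand.
COX7A2L: tacctgtttagtgttGCACTTTAgactggt
NDUFS1: tttaatagttacataGCACTTTAgtttgct
UQCRFS1: gtttacagtcactcaGCACTTTtcactgta
NDUFB6: gaacagcaattccatGCACTTTtgttttaa
COX7A2L, a complex IV relative that helps complexes join into larger assemblies, measured 119, 122 and 116 CPM in HepG2 NC TuD and 115, 114 and 120 CPM in miR-17 TuD. Its arms overlapped (log2 fold change -0.04 ± 0.04, adjusted p = 0.6). NDUFS1, UQCRFS1 and NDUFB6 are among the genes that were lower.

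Other genes of the pathway were read from lists of textbook members. The HepG2 counts below stand against 8.58% of all genes lower and 10.7% higher. Of 6 tested subunits outside the name rule, 2 were lower in HepG2 miR-17 TuD: NDUFAB1, the acyl carrier protein of complex I (-0.18 ± 0.04, adjusted p = 0.00136), and C14orf2, of the ATP synthase (-0.17 ± 0.06, adjusted p = 0.0464). CYC1, cytochrome c1 of complex III, was at -0.11 ± 0.04 (adjusted p = 0.0704). Of 13 electron carriers 1 was lower, CYCS, cytochrome c itself (-0.16 ± 0.04), and 1 higher, COQ9 (0.17 ± 0.06), or 7.69% each way. Assembly factors had 11 of 51 lower (21.6%) and none higher by edgeR, with a median of -0.08. LRPPRC, which stabilises mitochondrial messenger RNA, led them (-0.17 ± 0.03, edgeR adjusted p = 0.000101).

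Regulators of mitochondrial gene expression had 4 of 23 lower (17.4%) and 2 higher (8.70%) in HepG2 miR-17 TuD. Over all genes 8.58% were lower and 10.7% higher. SSBP1 (-0.21 ± 0.05) and MYC (-0.14 ± 0.04) were among the lower regulators and HIF1A (0.14 ± 0.04) among the higher. NRF1, GABPA and YY1, the factors of the promoter motifs, were not called (-0.11 ± 0.09, -0.02 ± 0.08 and 0.01 ± 0.05). Citric acid cycle and pyruvate dehydrogenase genes had 3 of 21 lower (14.3%), with PDHB at -0.23 ± 0.05, and 1 higher (4.76%), IDH2 at 0.24 ± 0.05. Glycolysis genes had 4 of 23 lower (17.4%) and 5 higher (21.7%), with a median of 0.05. PFKP, a phosphofructokinase, rose from 18.4 ± 0.789 to 27.5 ± 1.84 CPM, and SLC2A1, a glucose transporter, fell from 878 ± 32.6 to 732 ± 29.4 CPM (SD, n = 3). In SK-Hep1 none of these lists had a gene called by edgeR, where only 0.667% of all genes were higher and 0.202% lower.

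Between the NC TuD lines, 29 of 51 assembly factors (56.9%) were lower in SK-Hep1 and 12 (23.5%) higher, with a median of -0.32, against 42.8% lower, 43.9% higher and a median of 0.02 over all genes. Of 13 electron carriers 7 (53.8%) were lower and 4 (30.8%) higher, with a median of -0.56, shares that are nearer to those of all genes. Differences between these lists and the subunit genes were not tested. PPARGC1A, a coactivator of mitochondrial genes, was at 29.6 ± 1.51 CPM in HepG2 NC TuD and had no count in the SK-Hep1 NC TuD libraries. TFB1M, which modifies mitochondrial ribosomal RNA, was at 68.4 ± 1.77 CPM in HepG2 and 13.6 ± 0.0702 CPM in SK-Hep1. GABPA was higher in SK-Hep1 (1.02 ± 0.07), while NRF1 (0.18 ± 0.09) and YY1 (0.05 ± 0.05) were not called.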

How the data were processed

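The authors deposited raw counts per gene symbol for each library and 1 matrix of log2 values. Per the submitters' processing notes reads were handled with STAR, SAMtools, HTSeq 0.5.4p5 and limma on hg19, while the series text differs and gives Bowtie, TopHat, RSEM and mouse; the symbols are human and the 5 summary entries per column are of the HTSeq kind. Those entries (no feature 11.6% to 14.1%, ambiguous 0.584% to 0.619%, not unique 4.47% to 5.04%, not aligned 2.43% to 2.87% of each column) were left out. Per the labels, 150 ng of RNA entered a kit that does not mark strand, so reads of overlapping antisense genes cannot be told apart, and the series description gives 50 bp pairs.

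The test was that of edgeR 4.0.16 (R 4.3.3) on the counts: filterByExpr, TMM, and 1 robust quasi-likelihood fit of 4 group means to 10 libraries, with two-sided Benjamini-Hochberg adjusted p over 13349 genes and a threshold of 0.05. SE is the log2 fold change over the root of F. Alternatives were DESeq2 1.42.0 (size factors, Wald test), no filter, only the groups compared, a replicate block, leaving out each library, a lowess length trend (span 0.3) removed, and the deposited log2 matrix by limma 3.58.1. The fit was tested on simulated data. The spread between replicates exceeded counting noise (chi-square over degrees of freedom 1.39 to 3.59), and each library was kept as its own replicate. Such a spread can be technical and does not show that the libraries were separate cultures. Limits from a count of 0 use 3 counts and cover counting error only.

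Exon lengths are medians over coding transcripts in GENCODE 29 (GRCh38), matched by symbol (18293 directly, 729 by an older symbol, 193 not), and are approximate. Members, gene lists and tests were chosen with earlier results of these data known, and roles were assigned from textbook knowledge. Genes were named by rule: up to 5 called members per complex, direction and comparison with the smallest adjusted p, the 5 smallest where fewer than 5 were called, the core subunits, isoform sets, matched symbols that are not subunits, and up to 3 called genes per list. Values of 1 complex I gene and 1 site sequence are not reported here, and that gene is not drawn in the plots of fold changes; it stays in all counts, sums and medians.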

Additional observations from a re-analysis of the deposited data

Results flagged for a closer look

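NDUFS5, an accessory subunit of complex I, was flagged because its response to the decoy differed between the lines by a test of the difference itself. It was the only 1 of 78 tested genes, or 1.28%, near the 1.24% of all genes called in this direction. The response in SK-Hep1 minus that in HepG2 was 0.26 on the log2 scale (edgeR adjusted p = 0.0278). All 3 HepG2 miR-17 TuD libraries were below all 3 HepG2 NC TuD libraries, while the SK-Hep1 arms overlapped. These are the libraries that gave the call, so this is no separate evidence. The call was kept in 7 of 17 alternatives.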

How the results depend on the processing

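The number of subunit genes lower in HepG2 miR-17 TuD was 18 and fell to 11 with a replicate block and to 8 with a replicate block and the length trend removed together; leaving out each library in turn gave 12 to 17, and the other settings run gave 13 to 18. The number higher in HepG2 was 1, and 2 with the length trend removed, 0 on the deposited log2 matrix, and 0 to 1 when each library was left out. For the difference between the lines, 1 gene was higher; with DESeq2 size factors there were 2, with the replicate block 0, with the length trend removed 0, with both 0, and leaving out a library gave 0 to 1. The number lower was 0, with 1 when the length trend was removed (COX8A) and 0 to 1 when each library was left out (COX8A again, without HepG2 miR-17 TuD library 3). SK-Hep1 had 0 in both directions in each setting run, and the comparison of the lines gave 32 to 36 higher and 29 to 34 lower. The cause of these differences was not tested. Replicate numbers did not pair the samples: same-numbered libraries of the 2 arms correlated at -0.372 to 0.059 over 9011 genes, so the block result is only a description. HepG2 libraries with different numbers correlated at -0.13 to 0.419, the highest being miR-17 TuD 3 with NC TuD 2. No setting modelled such links between libraries. Of 228 results for single genes, none reversed; over all settings 95 values lost a call and 17 gained one. Many of these calls were near 1.1-fold, and genes with changes of that size may be missed. In the simulated data, 3 of 50 genes changed 1.1-fold were recovered in the HepG2 comparison, which had 150 calls in all. The real HepG2 comparison had 1425 higher and 1146 lower genes, and the adjusted p depends on how many genes change. The simulated rate therefore cannot be carried over to the subunit genes in HepG2, and the share missed there was not tested.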
